A study of Mus musculus with 12 samples.

Results

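Htr2b encodes a receptor for serotonin, and the genes described here are Htr2b, Psmd1, whose transcription unit contains Htr2b, the serotonin receptor genes Htr2a, Htr7, Htr1b and Htr1d, the serotonin transporter gene Slc6a4, and the enzyme genes Tph1 and Maoa. These 9 genes were chosen by their place in serotonin signalling and by the measured peaks themselves, since Htr2b was selected on its peaks in the OVA list and their absence from the PBS list. A peak was taken as a member when it was assigned to 1 of the 9 genes by name or when it had been called on the gene's identifier. By this rule the members were 19 of 27292 peaks in OVA and 17 of 26102 in PBS. The presence or absence of Htr2b peaks is therefore given as a description, and no test was made of it.

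The data came from methylated RNA immunoprecipitation sequencing (MeRIP-seq) of lung, in which fragments carrying N6-methyladenosine (m6A) are pulled down with an antibody (IP) and compared with the RNA before the pull-down (input). The animals were female BALB/c mice aged 6 to 8 weeks. The OVA mice, a model of allergic asthma, received injections of 0.2 ml with 20 µg/ml ovalbumin and 2 mg/ml alum on days 0 and 7, then inhaled a 3% ovalbumin aerosol for 30 min a day from day 14 to day 20. The PBS mice received PBS alone by both routes, without ovalbumin or alum, and lung was taken on day 21. Each group had 3 IP and 3 input libraries, 12 in all, but the deposited files hold 1 peak list per group. No value per mouse could be compared, no difference between OVA and PBS has a replicate check, and the depth behind each peak is unknown because the lists carry no read counts.

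Serotonin is made from tryptophan by a hydroxylase and a decarboxylase, is carried into cells by a membrane transporter and is broken down by monoamine oxidase. In the lung it is held by platelets, by neuroendocrine cells of the airway epithelium and, in rodents, by mast cells. The receptor encoded by Htr2b couples to Gq, which activates phospholipase C and raises intracellular calcium, and it is known for its action on fibroblasts and on vascular smooth muscle. Methylation of an mRNA at m6A can alter its splicing, translation and decay, and m6A peaks are commonly found in long internal exons and around the stop codon.

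Htr2b had 4 OVA peaks and 0 PBS peaks. Of the 9 genes it was the only gene with a peak in 1 list alone, while 6 genes had peaks in both lists and 2, Htr1d and Tph1, had none in either. Across all peaks, 19.4% of OVA peaks had no PBS peak overlapping them by 1 bp or more, and 14.5% of PBS peaks had no overlapping OVA peak. Among the members, 6 of 19 OVA peaks and 2 of 17 PBS peaks had no such overlap. Of the 6 OVA peaks, 4 were those of Htr2b. Since Htr2b was picked for that pattern, nothing is read from these shares.

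Positions are in GRCm38, and fold enrichment is the ratio of IP to input that the peak caller gave. Htr2b (ENSMUSG00000026228) lies on chromosome 1, with a RefSeq extent from 86097546 to 86116231, inside Psmd1 (86064619 to 86139295). The genes lie on opposite strands, Htr2b on the minus strand and Psmd1 on the plus strand. The peak at chr1:86099350-86099825 had a fold enrichment of 6.02 and a log10 FDR of -55.8, and lay in exon 4 of 4 of the Htr2b transcript. A further peak in the same last exon, at chr1:86099912-86100209, had a fold enrichment of 3.57 and a log10 FDR of -30.7. The last exon thus carried separate peaks, the stronger of them nearer the 3′ end of the RNA.

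The peak of Htr2b with the highest fold enrichment stood at the other end of the gene, at chr1:86110615-86111911, and was annotated as 5′ UTR. Its fold enrichment was 6.16 and its log10 FDR -66.8. It had 2 blocks, from 86110615 to 86111115 and from 86111878 to 86111910, so it ran over a junction between annotated exons. The fourth peak, at chr1:86110991-86116588, had been called on Psmd1 but was assigned to Htr2b, with a fold enrichment of 4.05 and a log10 FDR of -49.9. Of its 91 bp in blocks, 77 bp (84.6%) lay inside the block of the 5′ UTR peak called on Htr2b. Its other block, from 86116574 to 86116587, lay past the RefSeq end of Htr2b. Whether the peak caller used strand is not given in the sources used here. Peaks of Htr2b and of Psmd1, on the opposite strand, therefore cannot be told apart where they overlap. With overlapping peaks joined, the 4 peaks came down to 3, and their blocks covered 1320 bp in all.

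The strength of these peaks was ordinary for the OVA list, whose median fold enrichment was 5.59. In order of position the 4 peaks stood at the 52.6, 33.0, 53.4 and 38.2 percentiles of all OVA peaks by fold enrichment. Of all 27292 OVA peaks, 9114 had a p as low as or lower than the 5′ UTR peak, itself included, and 12385 had one as low as the Htr2b peak with the highest p. Among the 5286 OVA peaks without an overlapping PBS peak these numbers were 51 and 169, which is a description only because Htr2b was chosen for its place among such peaks. In the PBS list 0 peaks had a block inside the extent of Htr2b. The nearest PBS peaks ended 43904 bp to the left of it and began 16522 bp to the right.

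A list of called peaks gives no value for a gene without a peak, so less methylation and less RNA of Htr2b in the PBS libraries cannot be told apart by the peak lists. The authors also measured gene expression, with the input libraries serving as RNA-seq. The RNA level of Htr2b was not analysed here and its part in the pattern was not tested.

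**Figure D1:**
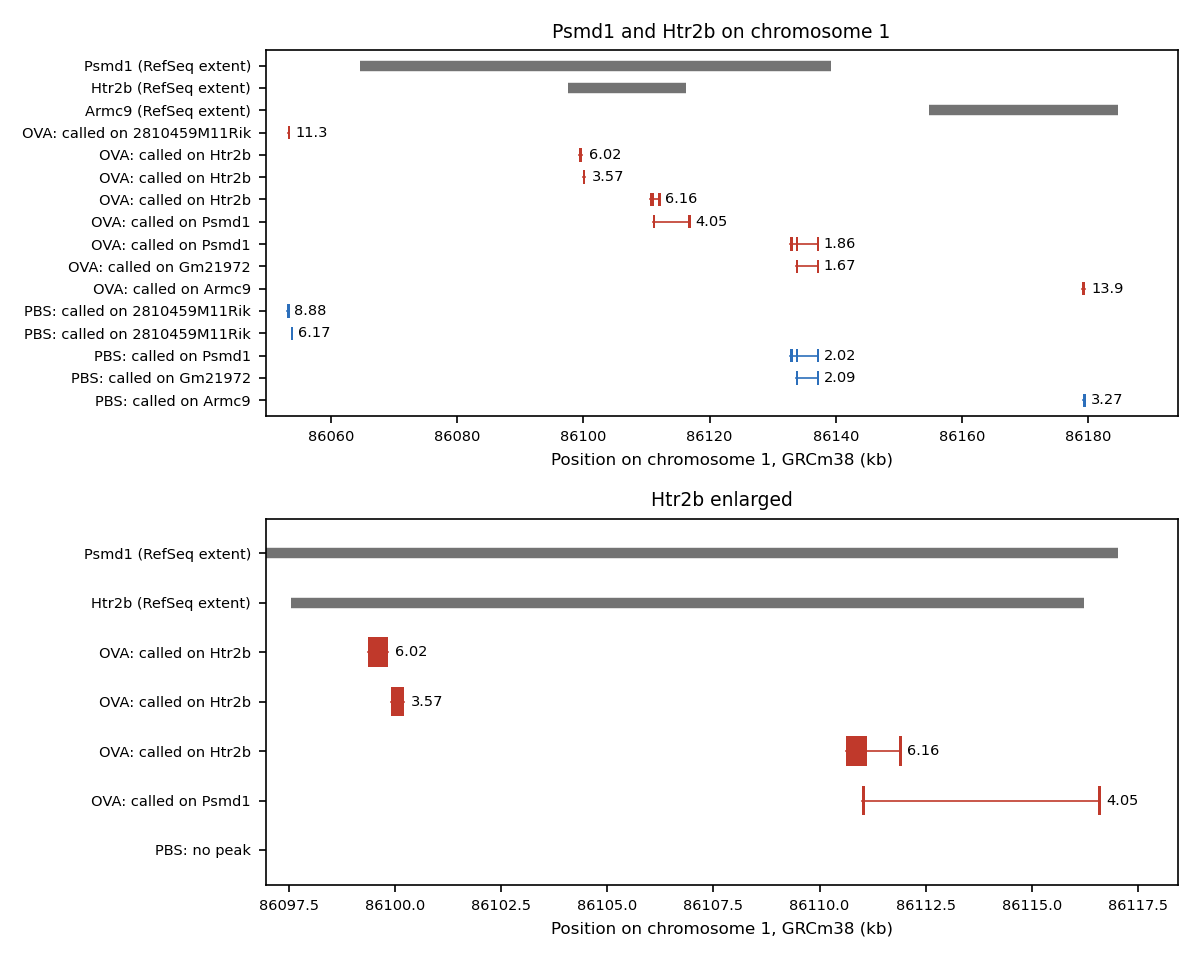
Peaks around Psmd1 and Htr2b. The horizontal axes give the position on chromosome 1 in kb (GRCm38), grey bars are RefSeq gene extents that may run past the panel, red and blue bars are the blocks of OVA and PBS peaks (very short blocks are widened to stay visible), thin lines join the blocks of a peak, and the number beside each peak is its fold enrichment. The lower panel shows the 4 OVA peaks within or next to Htr2b, from 3.57 to 6.16, and no PBS peak.

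Psmd1 (ENSMUSG00000026229) encodes a large non-ATPase subunit of the regulatory particle of the proteasome. It had 2 called peaks in OVA and 1 in PBS, and 0 peaks in either list were assigned to it by name. The peak that both lists shared began at 86132753, ran over 3 blocks from exon 22 of 25 of Psmd1, and was assigned to Gm21972, an overlapping transcript annotated for nonsense-mediated decay. Its fold enrichment was 1.86 in OVA and 2.02 in PBS, at the 7.81 and 11.1 percentiles of the lists. Both peaks were weak by fold enrichment, though their log10 FDR was -34.4 in OVA and -25.4 in PBS, and 211 bp of them coincided. The host gene thus had a peak in both lists nearer its own 3′ end than Htr2b lies, and an entry in the OVA list alone where its called peak ran into Htr2b.

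Other genes with a peak within 100 kb of those called on Psmd1 were 2810459M11Rik, Gm21972, Armc9 and Gm18180. Gm21972 had its own called peak in both lists, with fold enrichments of 1.67 in OVA and 2.09 in PBS. Armc9, which encodes a protein of the ciliary base, had a fold enrichment of 13.9 in OVA and 3.27 in PBS, with log10 FDR of -4.43 and -2.60. 2810459M11Rik had 1 peak in OVA, at 11.3, and peaks of 8.88 and 6.17 in PBS. Gm18180 had a peak in the PBS list alone, at 15.8.

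Htr2b was also set against all genes by the number of peaks called on them. Of 3330 genes with at least 3 called OVA peaks, 50 (1.5%) had no called PBS peak, and Htr2b was among them. Since Htr2b was picked for this pattern, its being there is no finding. Of the 50 genes, 28 were protein-coding in RefSeq and 48 had no PBS peak overlapping any of their OVA peaks.

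Among the 9 genes, Htr2a encodes the receptor closest in kind to that of Htr2b, coupled to the same G protein and present on platelets and smooth muscle. It had 3 peaks in OVA and 4 in PBS, all of them called on Htr2a (ENSMUSG00000034997, chromosome 14). At the 5′ end, the OVA list held a single peak at chr14:74641079-74642189, with a fold enrichment of 9.93 and a log10 FDR of -97.3. The PBS list held a pair of peaks within it, at chr14:74641408-74641889 (9.28) and chr14:74641948-74642159 (11.4). The PBS peaks covered 43.3% and 19.0% of the OVA peak and lay wholly inside it.

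The same arrangement was seen at the 3′ end of Htr2a. The OVA peak at chr14:74705776-74706617 had a fold enrichment of 26.0 and a log10 FDR of -118, at the 96.0 percentile of the OVA list. The PBS peaks at chr14:74705776-74706047 and chr14:74706196-74706587 had fold enrichments of 8.88 and 68.6, and the second stood at the 99.8 percentile of the PBS list. A weak OVA peak at chr14:74707095-74707156 (2.99, log10 FDR -1.52) had no overlapping PBS peak and lay past the RefSeq end of Htr2a at 74706859. Of the 34 member peaks called on 1 of the 9 genes, 33 had a block inside the RefSeq extent of that gene, this being the exception. Htr2a peaks covered 2012 bp in OVA and 1354 bp in PBS.

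These 3′ peaks of Htr2a were assigned by name to Gm9212, a processed pseudogene that RefSeq places at 74717617 to 74718829, outside all of them. A search by assigned name alone would have found 1 Htr2a peak in OVA and 2 in PBS.

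Htr1b encodes a receptor coupled to Gi, which lowers cyclic AMP. It had 7 peaks in each list on chromosome 9 (ENSMUSG00000049511), and in both lists these came down to 4 once overlapping peaks were joined. The strongest was in the 3′ UTR in both lists, at chr9:81630741-81631669 with a fold enrichment of 27.7 in OVA and at chr9:81630711-81631818 with 29.9 in PBS. The PBS peak contained the OVA peak, 928 bp long, in full. They stood at the 96.8 and 98.1 percentiles of their lists, so Htr1b had its main peak at a like place and rank in OVA and PBS.

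The smaller peaks of Htr1b matched less closely. The OVA peak at chr9:81630173-81630354 (4.24) and the PBS peak at chr9:81630353-81630533 (2.20) met by 1 bp, so they counted as overlapping although they lie next to each other. Likewise the OVA peak at chr9:81631877-81631968 (3.98) and the PBS peak at chr9:81631967-81632267 (7.40) shared 1 bp. A PBS peak inside the latter, at chr9:81631993-81632260 (5.23), had no OVA overlap. In the 5′ UTR both lists held the peak chr9:81632475-81632566 with the same start and end, with fold enrichments of 2.05 in OVA and 1.91 in PBS.

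Htr1b is overlapped by D430036J16Rik, a long non-coding RNA annotated as antisense, and 3 OVA and 4 PBS peaks called on Htr1b were assigned to it. RefSeq starts D430036J16Rik at 81631930, past the end of the strongest peak in both lists, but peaks called on D430036J16Rik reached into that stretch. The PBS peak chr9:81631580-81631819 (5.63) overlapped the strongest OVA peak by 89 bp, and the OVA peak chr9:81631669-81631730 (3.01) lay wholly in the strongest PBS peak. In the reverse direction, 1 OVA peak was called on D430036J16Rik and assigned to Htr1b, at chr9:81632462-81636906 (2.64). The libraries were strand-specific, but whether the peak caller used strand is not given in the sources used here, so peaks of the receptor and of its antisense partner cannot be told apart where they overlap.

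**Figure D2:**
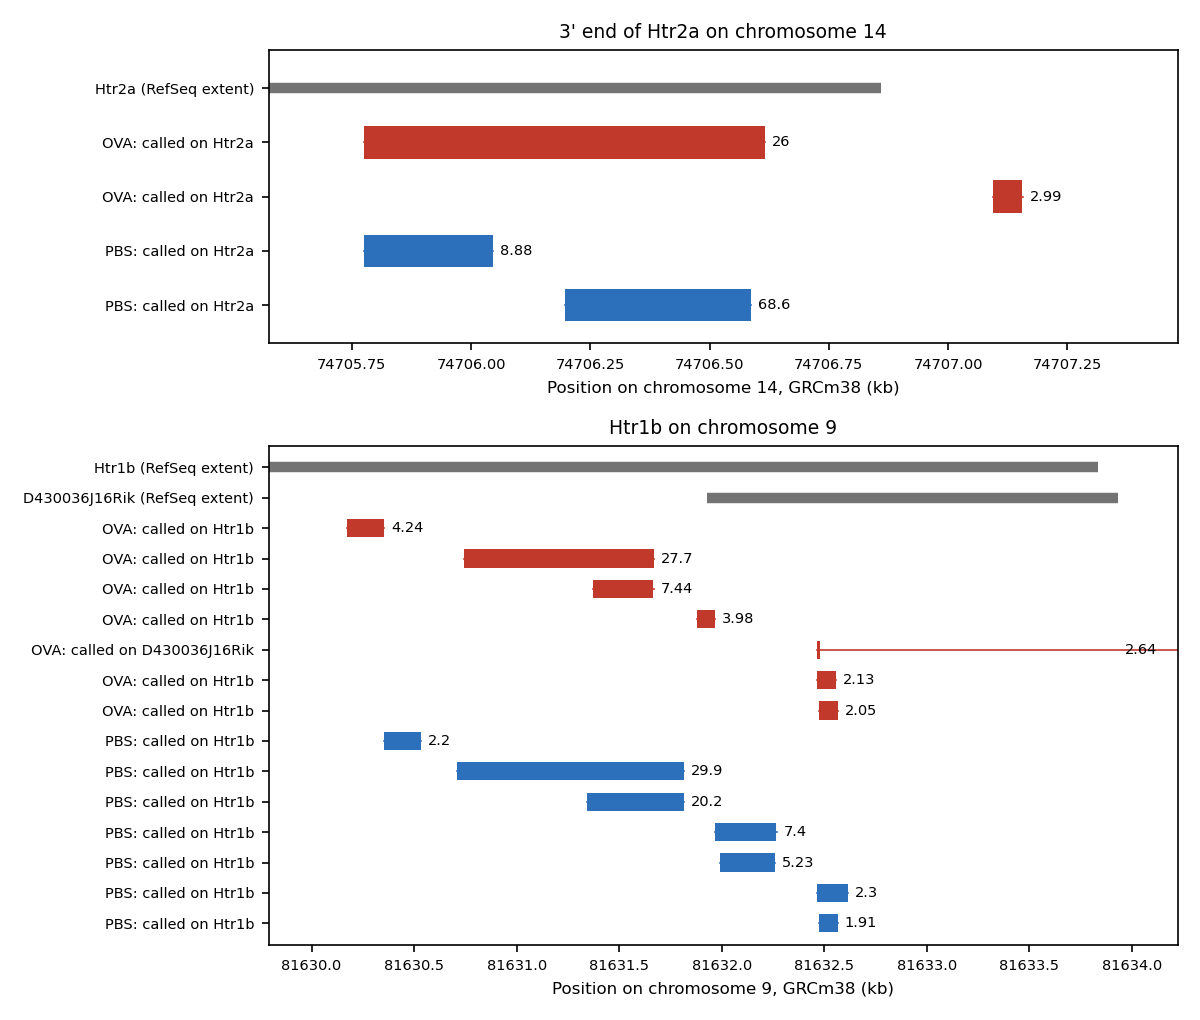
Peaks at the 3′ end of Htr2a (upper panel) and on Htr1b (lower panel). The horizontal axes give the position in kb (GRCm38), grey bars are RefSeq extents that may run past the panel, red and blue bars are blocks of OVA and PBS peaks, and numbers are fold enrichments. On Htr2a the OVA peak of 26.0 spans both PBS peaks (8.88 and 68.6), and on Htr1b the strongest peaks of the lists (27.7 and 29.9) lie over each other.

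Htr7 encodes a receptor coupled to Gs, which raises cyclic AMP. Its peaks were called on Htr7 (ENSMUSG00000024798, chromosome 19) in the 3′ UTR and all were assigned to the long non-coding RNA A830019P07Rik. The OVA list held chr19:35969328-35969568 (7.92, log10 FDR -11.7) and chr19:35969626-35969836 (6.85, log10 FDR -12.5). The PBS list held chr19:35969358-35969478 (10.9, log10 FDR -2.07), which lay inside the first OVA peak and covered 50% of it. The second OVA peak had no PBS counterpart, and the covered length was 450 bp in OVA and 120 bp in PBS. Htr1d, which encodes another Gi-coupled receptor, had 0 peaks in both lists.

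Slc6a4 encodes the transporter that clears serotonin from outside the cell and is the target of serotonin reuptake inhibitors. In OVA it had 1 peak, at chr11:77031624-77031953, with a fold enrichment of 7.76 and a log10 FDR of -28.3. In PBS the peak from the same start, chr11:77031624-77031982, had a fold enrichment of 4.79 and a log10 FDR of -48.2, and 329 bp were common to both. The lists thus shared a 3′ UTR peak on the transporter. PBS had a further peak of 3 short blocks at chr11:76998662-77009291, with a fold enrichment of 6.91 but a log10 FDR of -0.915, which is above an FDR of 0.05, and no OVA peak overlapped it.

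The third PBS peak assigned to Slc6a4, at chr11:76986481-76986811 (2.99), had been called on the neighbouring gene Blmh, which encodes a cysteine protease. It lies before the RefSeq start of Slc6a4 at 76998597 and within Blmh. The whole of it was covered by an OVA peak called on Blmh with a fold enrichment of 4.38, which was assigned to a different gene, Gm22611. A count of Slc6a4 peaks by assigned name alone gives 1 in OVA and 3 in PBS, against 1 and 2 by called gene.

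Of the enzymes, Tph1, the tryptophan hydroxylase of tissues outside the brain, had 0 peaks in both lists. Maoa, which encodes the monoamine oxidase that prefers serotonin, had 1 peak in each list from the same start in its 5′ UTR, on chromosome X. The OVA peak ran from 16619817 to 16639083 with a fold enrichment of 2.32 and a log10 FDR of -7.95, and the PBS peak from 16619817 to 16639173 with 2.21 and -14.4. The OVA blocks, 211 bp in all, lay wholly within the PBS blocks of 301 bp. Maoa peaks were weak in both lists, at the 15.9 and 14.4 percentiles.

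**Figure D3:**
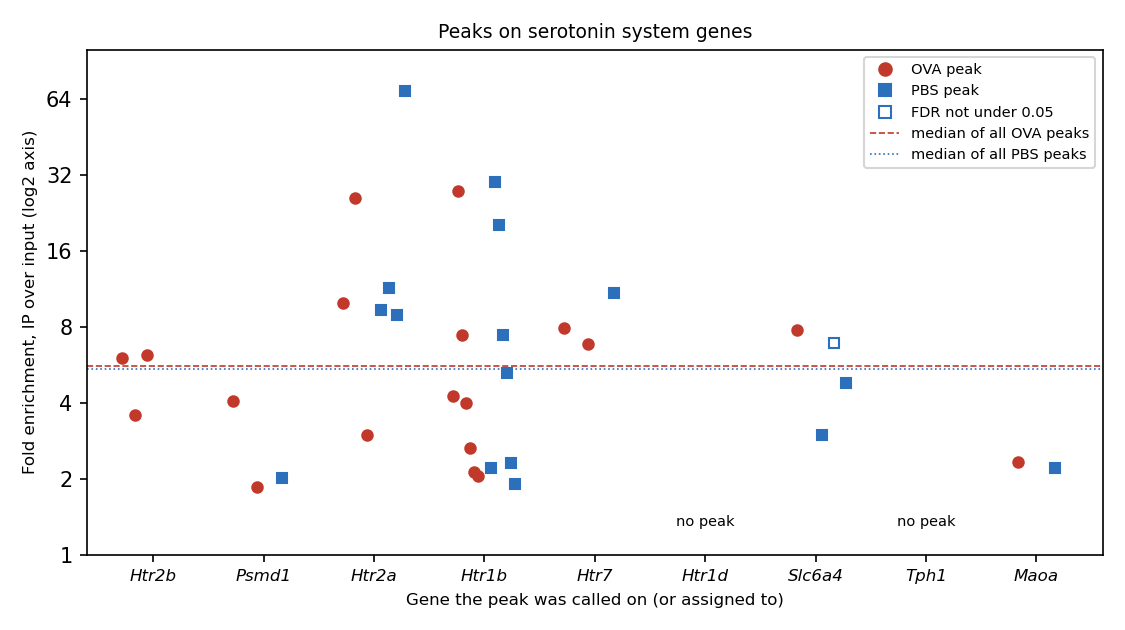
Fold enrichment of IP over input for each member peak on a log2 axis, by the gene it was called on, or assigned to where it was called on a gene outside the 9. Red circles are OVA peaks, blue squares are PBS peaks, the open symbol is the Slc6a4 peak of 6.91 whose FDR was not under 0.05, and the dashed and dotted lines are the medians of all OVA (5.59) and all PBS (5.44) peaks. Htr2b has OVA symbols alone, and Htr1d and Tph1 have no symbol.

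By fold enrichment the members lay on both sides of the list medians. Of 19 OVA member peaks, 9 were above the median of all OVA peaks, and of 17 PBS member peaks, 9 were above that of all PBS peaks. The member medians were 4.24 in OVA, beside 5.59 for all peaks, and 6.91 in PBS, beside 5.44. The PBS value of 6.91 is that of the Slc6a4 peak whose FDR was not under 0.05. Overlapping peaks were counted separately in these medians, and joined they came down to 15 in OVA and 14 in PBS. The highest values in both lists belonged to Htr2a and Htr1b. By annotation, 9 OVA members were in a 3′ UTR, 5 in a 5′ UTR and 5 in another exon, against 7, 5 and 5 in PBS. Over all peaks these annotations held 14378, 3169 and 9745 of 27292 in OVA, and 13768, 2972 and 9362 of 26102 in PBS. All 19 OVA members and 16 of 17 PBS members had an FDR under 0.05, beside 26783 of all OVA and 25539 of all PBS peaks. No block of a member peak reached the promoter windows of the 9 genes in RefSeq, of which there were 11. Promoter windows lie largely ahead of transcript starts and the blocks are those of peaks on RNA, so nothing is read from this.

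Called and assigned gene differed in 10 of 19 OVA members and 9 of 17 PBS members. Over all peaks the share was 22.5% in OVA and 22.8% in PBS. The members include genes that overlap or adjoin others, and peaks entered the set by either name, so these shares are a description of how the set was built. Among 4847 pairs of an assigned gene and a different called gene, the pairs with the most peaks over both lists were Fkbp7 with Ttn (39), Mir3108 with Zfhx3 (21) and Gm18853 with Gvin1 (20). The pair of D430036J16Rik with Htr1b had 7 peaks, with 81 pairs above it. Htr2b with Psmd1 had 1 peak, as had 1049 pairs in all, with 3798 pairs above them.

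Among all 14 serotonin receptor genes, 6 had a peak in OVA and 4 in PBS. Beside Htr2b, Htr5b was the other receptor gene with a peak in OVA alone, with a fold enrichment of 7.70 and a log10 FDR of -1.16 that is above an FDR of 0.05. Htr6 had a peak in both lists, at 6.49 in OVA and 7.05 in PBS, but it was called on the adjacent gene Nbl1. The other 8 receptor genes had none. For scale, 55.3% of 21900 RefSeq protein-coding symbols had a peak in OVA and 53.9% in PBS. These shares give the scale for each of the gene lists that follow as well. Of the 12720 symbols with a peak in either list, 7.28% had it in OVA only and 4.87% in PBS only.

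For synthesis, 3 of 7 genes had a peak, the same 3 in each list, and these act in making the tetrahydrobiopterin cofactor of the hydroxylases. Spr had a fold enrichment of 7.45 in OVA and 8.11 in PBS. Pts had 4.40 and 2.30, and Gch1, the entry enzyme of cofactor synthesis, had 2.88 and 2.75. Qdpr, which regenerates the cofactor, had no peak, nor had Tph2 and Ddc, which make serotonin itself along with Tph1.

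For transport and storage, 5 of 7 genes had a peak in OVA and 4 in PBS. Slc22a3, a low-affinity amine transporter, had the highest fold enrichment of this group in both lists, 31.3 in OVA and 12.8 in PBS. Slc29a4, another transporter of that kind, had 8.86 and 2.84. Slc18a2, which loads amines into vesicles, had a peak in OVA alone, at 2.05 with a log10 FDR of -1.11, above an FDR of 0.05.

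For breakdown and conversion, 5 of 7 genes had a peak in OVA and 4 in PBS. The aldehyde dehydrogenase gene Aldh1b1 led with 182 in OVA and 20.2 in PBS, from different peaks of the gene. Aldh1a1 had 23.1 and 5.89, and Aldh2 had 5.97 and 7.33. Aanat, which acetylates serotonin on the way to melatonin, had a peak in OVA alone, at 3.49 with a log10 FDR of -1.78. Over receptors, synthesis, transport and breakdown together, 15 of 35 genes had peaks in both lists, 4 in OVA alone (Htr2b, Htr5b, Slc18a2 and Aanat) and 0 in PBS alone. Htr2b was picked for being among them, Htr5b and Slc18a2 were not under an FDR of 0.05, and over all symbols with a peak 7.28% were in OVA only and 4.87% in PBS only.

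Downstream of the Htr2 receptors, 15 of 16 genes for Gq, phospholipase C, calcium release, protein kinase C, receptor arrest and contraction had a peak in OVA and 14 in PBS. Of all RefSeq protein-coding symbols, 55.3% had a peak in OVA and 53.9% in PBS, and no test was made of the difference. Itpr1, a calcium channel of the endoplasmic reticulum, had the highest fold enrichment in both, 158 in OVA and 80.1 in PBS. Grk2, a kinase that switches off receptors, had 23.1 and 36.2, and Itpr2 had 13.6 and 17.1. Itpr3 had a peak in OVA alone, at 2.14 with a log10 FDR of -11.7. Prkcb was the gene with no peak.

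In the regulatory particle of the proteasome, to which Psmd1 belongs, 14 of 21 genes had a peak in OVA and 13 in PBS. Psmc6 (3.72) and Psmd3 (3.41) had a peak in OVA alone, and Psmc2 (2.64) in PBS alone. The highest fold enrichments in OVA were those of Psmc1 (29.6), Psmd13 (16.9) and Psmd4 (10.4). In PBS they were those of Psmd4 (21.2), Psmd5 (20.2) and Psmd9 (19.7). The peaks named for Psmc1 and Psmd4 had been called on their neighbours Kcnk13 and Pip5k1a, so assignment to an adjoining gene was not limited to Psmd1.

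Among 24 receptor genes for histamine, adrenaline, dopamine, acetylcholine and trace amines, 15 had a peak in OVA and 14 in PBS. Hrh4, a histamine receptor gene of blood cells, was the gene with a peak in OVA alone, at 12.3 with a log10 FDR of -2.53. The highest in OVA were Chrm1 (43.6), Hrh1 (38.0) and Chrm2 (34.2), and in PBS Chrm2 (38.2), Adra1d (31.0) and Adra1a (28.6). The 5 dopamine receptor genes had no peak.

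Markers of cell types were counted in the same way, since a peak list gives no expression. Of 10 markers of lung epithelium and endothelium, 9 had a peak in both lists, Sftpc being the exception. The highest in OVA were Cldn5 (21.8), Foxj1 (15.8) and Ager (9.24), and in PBS Foxj1 (17.3), Cldn5 (10.8) and Sftpd (5.12). The OVA peaks of Foxj1 and Ager were called on their neighbours Rnf157 and Pbx2, and the PBS value of Foxj1 is from a different peak, called on Foxj1. Of 8 smooth muscle and fibroblast markers, 7 had a peak in OVA and 6 in PBS, with Tagln in OVA alone at 1.27. The highest there were Pdgfra (19.1), Tcf21 (17.1) and Col1a1 (11.9) in OVA and the same genes at 18.3, 13.7 and 11.6 in PBS, from different peaks of the gene for Pdgfra.

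Of 10 mast cell and basophil markers, 2 had a peak in OVA and 0 in PBS. These were Mcpt4 (8.73, log10 FDR -3.36) and Kit (1.45, log10 FDR -15.7), and Cpa3, Tpsb2, Tpsab1, Cma1, Mcpt8, Fcer1a, Ms4a2 and Hdc had no peak in either list. Over all symbols with a peak in either list, 7.28% had it in OVA only, and genes of the other lists did so too. The part of such cells in the Htr2b pattern was not tested, and in whole lung the number of cells of a type and their RNA per cell cannot be told apart.

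Of 6 platelet markers, 2 had a peak in each list. These were Itga2b, with 7.32 in OVA and 8.39 in PBS, called on Gpatch8, and Gp1ba, with 4.11 and 2.18. For both genes the values of the lists are from different peaks, and no Gp1ba peak of either list overlapped a peak of the other. Of 6 neuroendocrine markers, 2 had a peak in OVA and 3 in PBS. Scg5 had 20.6 in OVA and 11.5 in PBS, and Chgb had 11.2 and 9.44, in peaks called on a neighbouring gene.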

How the data were processed

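Ribosomal RNA was removed from total lung RNA, and IP and input libraries were read in pairs. The authors aligned reads with HISAT2 to the Ensembl version 101 genome, used exomePeak to call peaks and ChIPseeker to annotate them. How the 3 libraries of a group were joined is not given in the sources used here. The deposited fold enrichment is a ratio of IP to input, and the deposited log10 p and log10 FDR were used as a score as listed. The highest log10 p was -1.30 in OVA and -1.31 in PBS, so peaks were listed by an unadjusted p. Each peak also carries deposited positions and blocks. The listed end exceeds the last block by 1 bp.

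Python 3.11.15, numpy 2.4.6 and pandas 2.3.3 were used. Peaks were compared by overlap of blocks of at least 1 bp, and the overlap code was tested on simulated data. A percentile is the share of peaks of the same list with a lower fold enrichment, with ties at the middle. Gene identifiers were matched to symbols by the Ensembl table, and all genes of the lists were found. Named genes were the 9 members, genes with a peak in 1 list, the 3 highest by fold enrichment per list, neighbours within 100 kb and the 3 largest pairs of called and assigned genes. Some genes that this rule names are not reported here. The members and gene lists were chosen with earlier results of these data known. No test was made, and fold enrichments of OVA and PBS stand side by side only.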

Additional observations from a re-analysis of the deposited data

How the results depend on the processing

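Of 40 alternative values, 32 stayed within 1.5 times the reported count. Htr2b kept at least 3 OVA peaks and had 0 PBS peaks under an FDR under 0.05, a fold enrichment of at least 2, and selection by called or by assigned gene. Each of these settings can only remove peaks, so the 0 in PBS was fixed in advance and is no check of the pattern. Such fixed outcomes are counted among the 32. With members taken by assigned name alone, the peak counts were 11 in OVA and 9 in PBS, because peaks called on Psmd1, Htr2a, Htr7 and Htr1b carry other names, and PBS peaks without an OVA overlap fell to 1. At an FDR under 0.05 that count was also 1, since the Slc6a4 peak was left out. When identical start and end were required, 18 OVA and 16 PBS peaks had no match, and when 50% of both peaks had to overlap, 11 and 8 had none, as stricter matching can only raise these counts. Counting overlapping peaks once gave 15 OVA and 14 PBS members, and extending the last block to the listed end gave the reported counts of 6 and 2. These last alternatives were chosen after seeing the data. No paired analysis was possible because each group has a single peak list. For the same reason no library could be left out. The reads behind each peak, which limit what is called, are not given in the lists, and library depth was not analysed here.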
